A study of Mus musculus with 7 samples.

Results

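Genes of 2 families of splicing factors, the heterogeneous nuclear ribonucleoproteins (hnRNP) and the serine/arginine-rich (SR) proteins, were followed through RNA precipitated with an EZH2 antibody from mouse embryonic stem cells. The genes were chosen by name. The hnRNP list held 25 genes (the Hnrnp genes, Pcbp1, Pcbp2, Ptbp1, Syncrip and Raly) and the SR list 15 (the Srsf genes, Srrm1, Srrm2, Tra2a, Tra2b and Rbm25). A feature, meaning an interval on which the authors counted reads, was taken as a member where it lay on the strand of a listed gene, overlapped the span of that gene in GENCODE M21 (mm10) and overlapped no other gene. This gave 346 of 303889 features, in 39 of the 40 genes: 209 in 24 hnRNP genes and 137 in the 15 SR genes. Raly had no feature of its own, because each of its 42 features also overlapped another gene. Over all listed genes 58 features were left out for that reason. Of the hnRNP features 160 touched an annotated exon and 49 lay in introns of 15 genes. Of the SR features 94 touched an exon and 43 lay in introns of 11 genes. Exon features often ran into the neighbouring intron, so that exon bases made up 55.2% of their length in hnRNP genes and 60.9% in SR genes.

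RNA immunoprecipitation sequencing (RIP-seq) was done on 7 libraries of a line with the strain label CAST/B6 Male Rosa26-RMCE. Wild type (WT, n = 3) was the parental line with clones 20 and 44. The Ezh2 knockout (EZH2 KO, n = 2) was clones 12 and 19, and the knockout of both Safb and Safb2 (SAFB DKO, n = 2) was clones 13 and 4. All 7 cultures, WT included, had received doxycycline for 3 days, and the labels do not say what it induced. By the series title the monoclonal antibody, to human EZH2, cross-reacted with SAFB. The SAFB DKO clones therefore ask what part of the precipitated RNA needs SAFB proteins, and the EZH2 KO clones what part needs EZH2. Each library was a separate clone or the parental line, so p-values measure the spread between those, with 2 clones per knockout. Both comparisons share the WT libraries and are not independent of each other.

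The hnRNP proteins coat nascent transcripts, and several of them, PTBP1 and HNRNPL among them, are known to repress exons. SR proteins bind exonic enhancers through RNA recognition motifs and draw in the spliceosome through their arginine- and serine-rich domains. Many genes of both families are known to limit their own output through conserved decay exons and retained introns, whose inclusion brings an early stop codon and sends the transcript to nonsense-mediated decay. SAFB is a nuclear RNA-binding protein known to prefer purine-rich sequence such as GAAGA, and EZH2 is the histone methyltransferase of Polycomb repressive complex 2.

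A few stretches of the member features on which the results turn are shown first, in mm10 and from GENCODE M21 transcripts, 5′ to 3′ on the strand of the gene, with each GAAGA in capitals. The Srrm2 stretch (chr17:23816083-23816382, + strand) is the 300 bases with the most GAAGA in the coding exon that had the highest counts of any member feature. The Hnrnph2 stretch (chrX:134604995-134605294, + strand) opens the only feature of that gene, and like Srrm2 it moved in opposite directions in the knockouts. From Hnrnpl come the first 300 bases of an intron (chr7:28815353-28815652, + strand) that is kept in retained-intron transcripts, and the 56 coding bases of a decay exon (chr7:28817335-28817390, + strand) in the same feature. The Tra2a stretch (chr6:49252968-49253108, - strand) is the part of a 306-base exon that codes in the only kind of transcript annotated with it, a decay transcript. The Pcbp2 exon (chr15:102474575-102474691, + strand) is given for contrast, since its feature was lower in EZH2 KO and higher in SAFB DKO than in WT.
Srrm2 coding exon: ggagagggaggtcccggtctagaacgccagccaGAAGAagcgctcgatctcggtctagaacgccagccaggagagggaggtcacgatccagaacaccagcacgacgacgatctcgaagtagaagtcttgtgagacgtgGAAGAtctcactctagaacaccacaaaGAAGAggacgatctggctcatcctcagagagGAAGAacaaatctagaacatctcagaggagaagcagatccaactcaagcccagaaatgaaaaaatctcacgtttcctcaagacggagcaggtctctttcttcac
Hnrnph2 coding exon: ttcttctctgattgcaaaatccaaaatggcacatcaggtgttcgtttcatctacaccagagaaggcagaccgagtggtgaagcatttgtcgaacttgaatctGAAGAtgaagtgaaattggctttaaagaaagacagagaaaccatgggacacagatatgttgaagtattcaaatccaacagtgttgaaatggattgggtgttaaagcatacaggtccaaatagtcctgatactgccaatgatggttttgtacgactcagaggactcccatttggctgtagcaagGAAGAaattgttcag
Hnrnpl retained intron: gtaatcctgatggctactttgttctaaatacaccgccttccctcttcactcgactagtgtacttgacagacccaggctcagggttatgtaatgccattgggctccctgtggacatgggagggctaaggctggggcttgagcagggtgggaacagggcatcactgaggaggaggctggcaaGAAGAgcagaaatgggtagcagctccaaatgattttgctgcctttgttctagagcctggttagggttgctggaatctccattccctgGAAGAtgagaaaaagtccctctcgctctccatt
Hnrnpl decay exon: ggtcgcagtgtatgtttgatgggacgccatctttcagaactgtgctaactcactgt
Tra2a decay exon: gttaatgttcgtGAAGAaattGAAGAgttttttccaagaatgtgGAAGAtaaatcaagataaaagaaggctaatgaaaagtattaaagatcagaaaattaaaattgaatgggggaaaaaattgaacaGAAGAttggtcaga
Pcbp2 coding exon: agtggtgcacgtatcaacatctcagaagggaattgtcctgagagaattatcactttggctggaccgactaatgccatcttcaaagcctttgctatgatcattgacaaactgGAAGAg

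Total counts were 19024702 to 21832539 per library in WT, 7050832 to 8353603 in EZH2 KO and 15812517 to 18738499 in SAFB DKO. Levels are given as CPM, that is, counts scaled to a common library size. The targeted genes checked the labels: summed exon features of Ezh2 had 0.601 and 0 CPM in EZH2 KO against 104 to 126 in WT, and those of Safb had 1.41 and 0.592 in SAFB DKO. In WT, Safb had 239, 245 and 117 CPM, lowest in clone 44. The column names of the EZH2 KO libraries follow another pattern than the others. A sample number in these names also occurs on both a WT and an EZH2 KO library. The EZH2 KO libraries may therefore come from another sequencing run, which no label or column name states. If they do, genotype and run cannot be told apart in any comparison with EZH2 KO. Exon features of 9 of 10 embryonic stem cell markers were present (Sox2 had no feature of its own), and their summed level was 1239 to 1287 CPM in WT, 836 to 921 in EZH2 KO and 1745 to 1790 in SAFB DKO. The summed level of 4 of 6 fibroblast feeder markers (Col1a2 and Postn had no feature) was 9.61 to 14.5, 5.03 to 10.5 and 8.34 to 11.8 CPM. Endoderm markers summed to at most 3.91 CPM and mesoderm markers to at most 25.9 CPM in any library, and the only neural marker with a feature, Pax6, reached at most 7.41 CPM. Of the 9 stem cell markers 7 fell and 2 rose in EZH2 KO, and 7 rose and 1 fell in SAFB DKO. The exceptions were Zfp42, which rose by 0.98 in EZH2 KO (adjusted p = 2.4e-04) and in SAFB DKO fell by 1.07 (adjusted p = 9.5e-05), and Klf4, which rose by 0.67 in EZH2 KO (adjusted p = 0.00276). The part of these markers in the results was not tested.

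On exons, most hnRNP genes fell in EZH2 KO, and 10 of 24 rose in SAFB DKO. In EZH2 KO 19 of 24 hnRNP genes fell and 3 rose, with a median log2 fold change of -0.88 (edgeR quasi-likelihood test over all genes, adjusted p under 0.05 counted as a change). Among all 15243 genes tested on exons, 27.3% fell and 18.1% rose in EZH2 KO, with a median of -0.19. In SAFB DKO 2 fell beside the 10 that rose, with a median of 0.37, against 20.0% that rose and 21.7% that fell among all genes, with a median of 0.08. The 2 EZH2 KO libraries lay below all 3 WT libraries in 19 genes and above them in 3. The 2 SAFB DKO libraries lay above all WT libraries in 16 genes and below them in 3. How often all genes part in this way, with 2 libraries against 3, was not counted, so these counts describe the members only. The count in SAFB DKO depended on single libraries: 6 genes were called without the parental WT, 5 without WT clone 20, 8 without SAFB DKO clone 13 and 5 without SAFB DKO clone 4. It also depended on the scaling. With column totals as library sizes 18 hnRNP genes rose and 2 fell in SAFB DKO, beside 34.0% and 18.3% of all genes, and DESeq2 gave 18 and 2 as well. No total RNA was analysed here, so a change in transcript level and a change in the precipitated share cannot be told apart, and in bulk samples neither can fewer cells of a type and less RNA per cell.

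**Figure D1:**
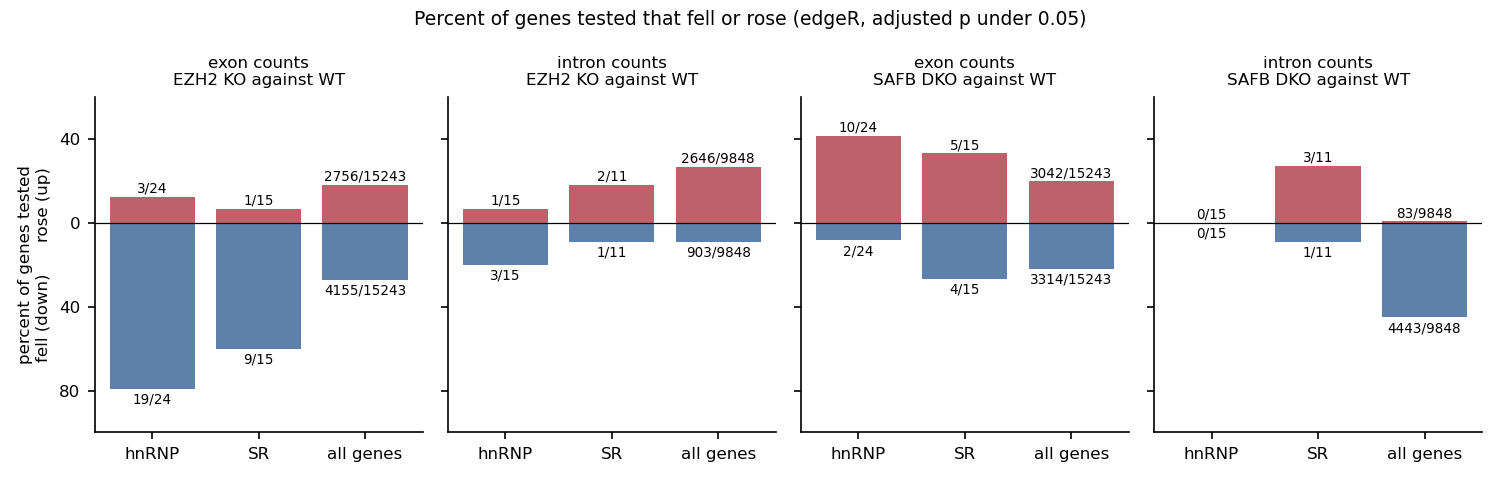
Bars give the percent of genes tested that fell (below 0) or rose (above 0) in EZH2 KO or SAFB DKO against WT, for hnRNP genes, SR genes and all genes, on exon and on intron counts. The hnRNP exon bar reaches 79.2% fallen in EZH2 KO and 41.7% risen in SAFB DKO, while on introns no hnRNP gene was called in SAFB DKO, where 45.1% of all genes fell.

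The poly(C)-binding members, which bind C-rich RNA through KH domains, held the lowest EZH2 KO fold change of the family. Pcbp2, a splicing and translation regulator, had 266, 273 and 331 CPM on its exons in WT, 62.8 and 76.9 in the EZH2 KO clones, and 480 and 498 in the SAFB DKO clones. The 3 groups did not overlap: Pcbp2 fell by 2.05 on the log2 scale in EZH2 KO (SE 0.15, adjusted p = 5.4e-06) and rose by 0.75 in SAFB DKO (SE 0.14, adjusted p = 6.0e-04). The call in SAFB DKO was lost when only features with at least 90% of their bases in exons were counted (0.65, adjusted p = 0.0868). Pcbp1, its relative from a gene without introns, fell by 0.79 in EZH2 KO and had a log2 change of 0.35 in SAFB DKO (adjusted p = 0.0705). Hnrnpk, the third KH-domain member, fell by 1.33 in EZH2 KO, with 22.9 and 54.1 CPM against 90.3 to 103 in WT. In SAFB DKO Hnrnpk missed the threshold (0.61, adjusted p = 0.0507). It passed there with column totals (0.84, adjusted p = 0.00119) and with the DESeq2 test (0.89, adjusted p = 7.6e-05).

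Members of the A/B type, which carry paired RNA recognition motifs and a glycine-rich tail, followed the same course. Hnrnpab had 276, 266 and 323 CPM in WT, 91.4 and 99.4 in the EZH2 KO clones, and 467 and 436 in the SAFB DKO clones. It fell by 1.60 in EZH2 KO (SE 0.14, adjusted p = 1.1e-05) and rose by 0.65 in SAFB DKO (SE 0.13, adjusted p = 0.00105), calls that held under every alternative tried. Hnrnpa2b1, whose protein is also known as a reader of modified RNA, had 273, 294 and 331 CPM in WT, 77.6 and 125 in the EZH2 KO clones, and 419 and 430 in the SAFB DKO clones. Its knockouts lay on either side of WT, with a fall of 1.56 (adjusted p = 4.8e-05) and a rise of 0.50 (adjusted p = 0.0275). Hnrnpa0, a small gene with a single coding exon, had 126, 111 and 112 CPM in WT, 60.9 and 75.6 in the EZH2 KO clones, and 142 and 174 in the SAFB DKO clones, a fall of 0.77 and a rise of 0.44 (adjusted p = 0.00155 and 0.0247). Hnrnpa1, a repressor of exon inclusion, fell by 0.92 and Hnrnpa3 by 0.88 in EZH2 KO (adjusted p = 0.0111 and 0.0186), and neither passed in SAFB DKO (0.51 and 0.34, adjusted p = 0.0862 and 0.286). Both falls were lost without EZH2 KO clone 12 (-0.56 and -0.49, adjusted p = 0.054 and 0.0927) and on features at least 90% in exons (-1.34 and -0.57, adjusted p = 0.186 and 0.149). Values of both are uncertain, since these genes have many near-identical processed copies and the counting command names no option for reads that match several places.

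Of the members known for AU-rich element binding, Hnrnpd had 95.9, 103 and 116 CPM in WT, 39.8 and 59.9 in the EZH2 KO clones, and 138 and 168 in the SAFB DKO clones. It fell by 1.07 and rose by 0.55 (adjusted p = 5.5e-04 and 0.0188). Its relative Hnrnpdl fell by 0.66 in EZH2 KO (adjusted p = 0.00261) and had a change of 0.28 in SAFB DKO (adjusted p = 0.112). The polypyrimidine tract binder Ptbp1, a repressor of neuronal exons, had 83.9, 82.1 and 89.6 CPM in WT, 41.0 and 47.5 in the EZH2 KO clones, and 108 and 120 in the SAFB DKO clones, a fall of 0.94 and a rise of 0.42 (adjusted p = 2.5e-04 and 0.0209). Hnrnpll, an L-like repressor, had 22.8, 24.8 and 26.2 CPM in WT, 11.9 and 12.1 in the EZH2 KO clones, and 37.0 and 38.6 in the SAFB DKO clones. With no overlap between groups, it fell by 1.03 and rose by 0.62 (adjusted p = 6.0e-04 and 0.00548). On features at least 90% in exons neither call of Hnrnpll remained (-0.39 and 0.44, adjusted p = 0.311 and 0.199), and the rise was also lost without SAFB DKO clone 4 (adjusted p = 0.0526). The calls of Ptbp1 did not remain on those features either (-0.74 and 0.17, adjusted p = 0.447 and 0.853).

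Within the H/F type, which binds G-rich sequence, the members parted. Hnrnph1 had 126, 128 and 167 CPM in WT, 49.2 and 63.2 in the EZH2 KO clones, and 192 and 197 in the SAFB DKO clones, a fall of 1.32 and a rise of 0.47 (adjusted p = 8.4e-05 and 0.0253). Its close paralog Hnrnph2 went the other way: 41.0, 42.8 and 31.6 CPM in WT, 88.8 and 92.3 in the EZH2 KO clones, and 16.1 and 16 in the SAFB DKO clones. Hnrnph2 rose by 1.23 in EZH2 KO (SE 0.16, adjusted p = 8.1e-05) and fell by 1.26 in SAFB DKO (SE 0.17, adjusted p = 4.4e-05), and both calls held under every alternative tried. Reads of the X-linked Hnrnph2 and of Hnrnph1 can match both genes, so the level of each is uncertain, though their changes had opposite signs. Hnrnph3 rose by 0.61 in SAFB DKO (adjusted p = 0.0164; 28.0 to 33.5 CPM in WT, 49.4 and 42.6 in SAFB DKO), and its 18.5 and 29.3 CPM in EZH2 KO overlapped WT (-0.33, adjusted p = 0.202). Hnrnpf was not called in either knockout, with changes of -0.12 and 0.05.

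The U type binds chromatin-associated RNA, and Hnrnpu, also known as scaffold attachment factor A, had the highest exon level per length in the hnRNP family, 203 CPM per kb of features in WT. Hnrnpu had 953, 947 and 1122 CPM in WT, 486 and 606 in the EZH2 KO clones, and 797 and 868 in the SAFB DKO clones. It fell by 0.88 in EZH2 KO (SE 0.14, adjusted p = 2.8e-04), while in SAFB DKO both libraries lay below WT without passing the threshold (-0.28, adjusted p = 0.114). That value passed when either EZH2 KO library was left out of the fit (adjusted p = 0.0292 and 0.0289). Hnrnpul2 had 130, 125 and 122 CPM in WT, 56.4 and 70.6 in the EZH2 KO clones, and 177 and 153 in the SAFB DKO clones, a fall of 0.98 and a rise of 0.39 (adjusted p = 2.2e-04 and 0.0326). On features at least 90% in exons Hnrnpul2 had changes of -0.46 and -0.01 (adjusted p = 0.137 and 0.973). Hnrnpul1 fell by 0.33 in EZH2 KO (adjusted p = 0.0444) and was not called in SAFB DKO (0.21). That fall was lost without each WT library in turn (adjusted p = 0.154, 0.11 and 0.077) and with a replicate block (adjusted p = 0.106). The rises of Hnrnpul2, Hnrnpa0, Hnrnph1, Hnrnph3, Hnrnpa2b1, Hnrnpd and Ptbp1 in SAFB DKO were each lost when single WT or SAFB DKO libraries were left out. Hnrnpd had 0.26 on features at least 90% in exons (adjusted p = 0.469).

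The remaining hnRNP genes were Syncrip, Hnrnpr, Hnrnpc, Hnrnpm and Hnrnpl. Syncrip, which acts in splicing and in mRNA stability, fell by 1.52 in EZH2 KO (adjusted p = 2.2e-04) and had a change of 0.09 in SAFB DKO. Hnrnpr, its paralog, was 1 of the 3 that rose in EZH2 KO: 68.8, 76.9 and 71.6 CPM in WT, 86.3 and 101 in the EZH2 KO clones, and 69.2 and 65.6 in the SAFB DKO clones. That rise (0.37, SE 0.14, adjusted p = 0.0446) was lost under most alternatives, with values of 0.19 to 0.43 when 1 library was left out. Hnrnpc, which packages nascent RNA and binds U tracts, fell by 0.72, and Hnrnpm by 0.60, in EZH2 KO (adjusted p = 0.00167 and 0.00446), and neither passed in SAFB DKO. Counted on features at least 90% in exons, Hnrnpc had a change of 0.47 in EZH2 KO (adjusted p = 0.319).

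Hnrnpl, which binds CA repeats, had 723, 773 and 752 CPM in WT, 1108 and 1413 in the EZH2 KO clones, and 470 and 459 in the SAFB DKO clones. Its groups did not overlap and ran in the order seen in Hnrnph2, with a rise of 0.75 in EZH2 KO (SE 0.12, adjusted p = 4.2e-04) and a fall of 0.69 in SAFB DKO (SE 0.13, adjusted p = 6.9e-04). As described further on, a single feature that is mostly intron made up the greater part of this sum. Counting only features that lie almost wholly in exons leaves that feature out, so this alternative could not test the calls. Both calls held under the other alternatives tried.

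**Figure D2:**
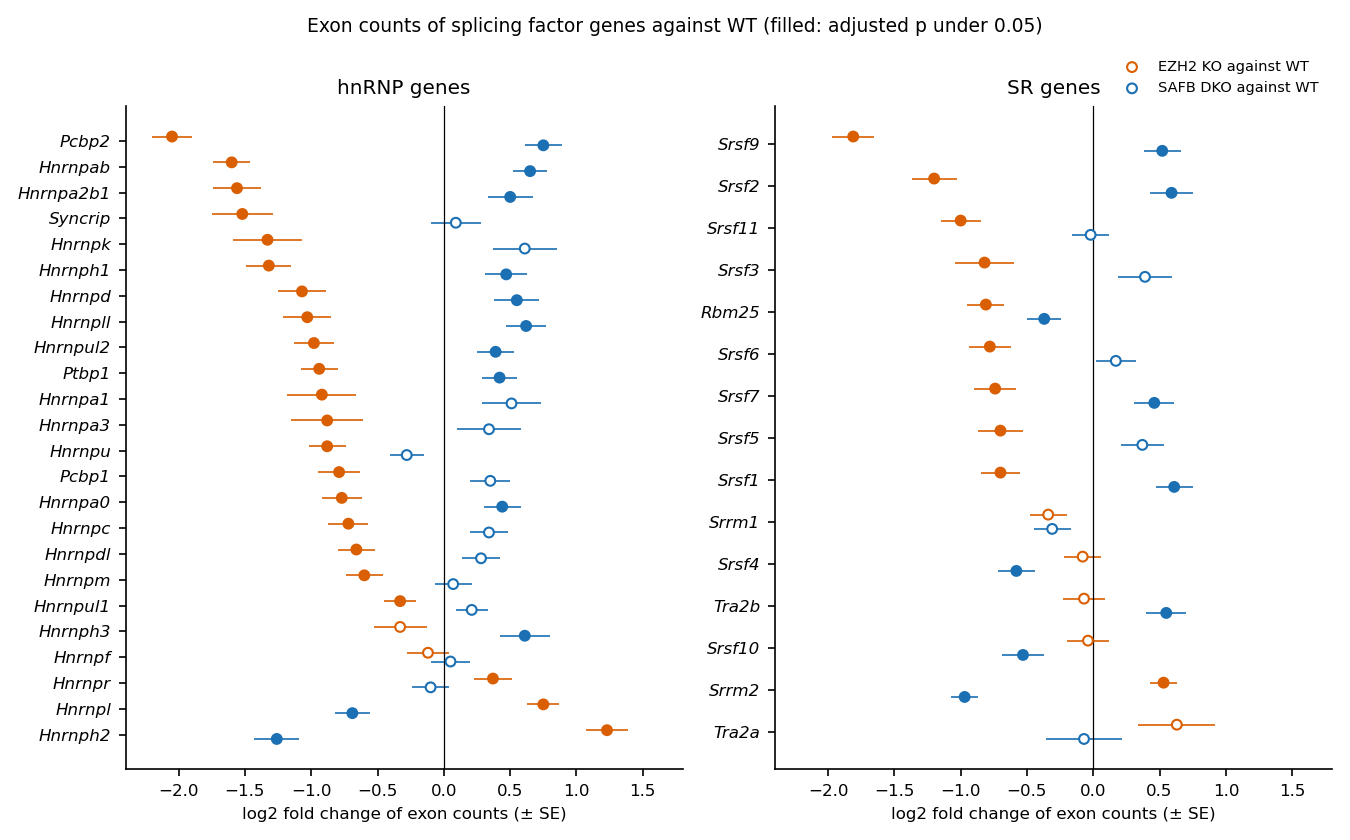
Points give the log2 fold change of summed exon counts against WT for each hnRNP gene (left) and SR gene (right) in EZH2 KO and SAFB DKO, with bars of 1 SE, filled where the adjusted p was under 0.05. Most members have the EZH2 KO point left of 0 and the SAFB DKO point right of it, while Hnrnpl, Hnrnph2 and Srrm2 have the reverse order. The Hnrnpl sum lies mostly in a single feature that is mostly intron.

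SR genes were also mostly lower in EZH2 KO on exons, and divided in SAFB DKO. In EZH2 KO 9 of 15 fell and 1 rose (median -0.70), and in SAFB DKO 4 fell and 5 rose (median 0.17), against the shares of all genes given above. With column totals as library sizes, or with DESeq2, the split in SAFB DKO became 2 fallen and 8 risen, and the count dropped to 4 of 15 without SAFB DKO clone 13 and to 4 without clone 4. The summed SR exon level was 5857 to 6088 CPM in WT, 6829 and 7343 in the EZH2 KO clones, and 3964 and 4127 in the SAFB DKO clones. That order was the order of Srrm2, which made up 66.5% of the sum in WT. Without Srrm2 the sum was 1902 to 2120 CPM in WT, 1139 and 1606 in the EZH2 KO clones, and 2021 and 2036 in the SAFB DKO clones.

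Srrm2, a large scaffold protein of nuclear speckles, had the highest exon level per length of all members, 492 CPM per kb in WT. It had 3956, 4123 and 3789 CPM in WT, 5690 and 5737 in the EZH2 KO clones, and 1942 and 2091 in the SAFB DKO clones. The groups lay far apart relative to their spread: Srrm2 rose by 0.53 in EZH2 KO (SE 0.10, adjusted p = 0.00111) and fell by 0.97 in SAFB DKO (SE 0.10, adjusted p = 6.7e-06), under every alternative tried. Its partner Srrm1, a splicing coactivator, had 441, 423 and 451 CPM in WT, 297 and 396 in the EZH2 KO clones, and 386 and 321 in the SAFB DKO clones. All 4 knockout libraries lay below WT, and neither change passed the threshold (-0.34 and -0.31, adjusted p = 0.0746 and 0.0974). The fall of Srrm1 in EZH2 KO did pass under each other scaling tried, among them column totals (-0.60, adjusted p = 5.2e-04) and the DESeq2 test (-0.37, adjusted p = 0.00829). It also passed on features at least 90% in exons (-0.63, adjusted p = 0.00676).

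Among the canonical SR proteins, Srsf9 fell most in EZH2 KO. Srsf9 had 55.0, 54.7 and 59.5 CPM in WT, 17.3 and 14.8 in the EZH2 KO clones, and 81.1 and 80.4 in the SAFB DKO clones, a fall of 1.81 (SE 0.16, adjusted p = 1.2e-05) and a rise of 0.52 (SE 0.14, adjusted p = 0.00747). Srsf2, a speckle protein that activates exons, had 105, 96.9 and 117 CPM in WT, 37.6 and 55.2 in the EZH2 KO clones, and 160 and 161 in the SAFB DKO clones, a fall of 1.20 and a rise of 0.59 (adjusted p = 1.7e-04 and 0.00808). The SAFB DKO clones were nearly equal in both genes. Srsf1, the founding member of the family, had 163, 184 and 196 CPM in WT, 96.4 and 126 in the EZH2 KO clones, and 261 and 291 in the SAFB DKO clones. It fell by 0.70 and rose by 0.61 (adjusted p = 0.00245 and 0.00403). Srsf7, which shuttles and acts in mRNA export, had 69.9, 66.4 and 84.4 CPM in WT, 39.4 and 48.6 in the EZH2 KO clones, and 96.9 and 106 in the SAFB DKO clones, a fall of 0.74 and a rise of 0.46 (adjusted p = 0.00277 and 0.0235). In these 4 genes, named here for their calls in both knockouts, the 3 genotypes did not overlap. How often all genes part in this way was not counted. The rises of Srsf9, Srsf2 and Srsf1 in SAFB DKO missed the threshold without SAFB DKO clone 4 (adjusted p = 0.0547, 0.0594 and 0.0615), and that of Srsf9 also without clone 13 (adjusted p = 0.0505). The rise of Srsf7 missed it without the parental WT, WT clone 20 and SAFB DKO clones 13 and 4 in turn (adjusted p = 0.103, 0.113, 0.0588 and 0.179).

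A further 4 SR genes fell in EZH2 KO without a call in SAFB DKO. They were Srsf11 (-1.0), Srsf3 (-0.82), Srsf6 (-0.78) and Srsf5 (-0.70), with changes of -0.02, 0.39, 0.17 and 0.37 in SAFB DKO. For Srsf5 and Srsf6 the lack of a call in SAFB DKO depended on the scaling. Srsf5 rose with column totals (0.59, adjusted p = 9.5e-04) and with the DESeq2 test (0.64, adjusted p = 3.7e-05). Srsf6 likewise rose with column totals (0.39, adjusted p = 0.0152) and with the DESeq2 test (0.45, adjusted p = 0.00557). Rbm25, which recruits the U1 snRNP to weak splice sites, was lower in both knockouts: 416, 433 and 466 CPM in WT, 219 and 281 in the EZH2 KO clones, and 346 and 334 in the SAFB DKO clones. Its fall in EZH2 KO was 0.81 (adjusted p = 4.8e-04), and -0.19 was found on features at least 90% in exons (adjusted p = 0.649). Its fall of 0.37 in SAFB DKO (adjusted p = 0.0396) was lost under most alternatives, and on those features the value was 0.18 (adjusted p = 0.67).

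Srsf4 and Srsf10 fell in SAFB DKO and were not called in EZH2 KO (-0.08 and -0.04), and the difference between the knockouts was tested as SAFB DKO against EZH2 KO. The Srsf10 fall lay mostly in its last feature, given further on. On features at least 90% in exons Srsf10 had -0.82 in EZH2 KO (adjusted p = 0.00962). Srsf4, a long SR protein, had 101 CPM in each WT library, 86.0 and 105 in the EZH2 KO clones, and 68.6 and 66.8 in the SAFB DKO clones. It fell by 0.58 in SAFB DKO (SE 0.14, adjusted p = 0.00366), and by 0.50 in SAFB DKO against EZH2 KO (adjusted p = 0.0104). Srsf10, known as a repressor of splicing when dephosphorylated, had 59.9, 68.7 and 73.8 CPM in WT, 57.3 and 73.8 in the EZH2 KO clones, and 43.8 and 49.6 in the SAFB DKO clones. It fell by 0.53 (adjusted p = 0.0154) and by 0.49 against EZH2 KO (adjusted p = 0.0262), and the first was lost with column totals (-0.31, adjusted p = 0.0683), with DESeq2 (-0.26, adjusted p = 0.159), on features at least 90% in exons (-0.05, adjusted p = 0.86) and without SAFB DKO clone 13 (-0.45, adjusted p = 0.117). Of the Transformer relatives, Tra2b rose by 0.55 in SAFB DKO (adjusted p = 0.00953; 23.8 to 26.4 CPM in WT, 37.2 and 35.9 in SAFB DKO), and Tra2a was not called on exons, where EZH2 KO clone 19 had 205 CPM and every other library 72.5 to 107.

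**Figure D3:**
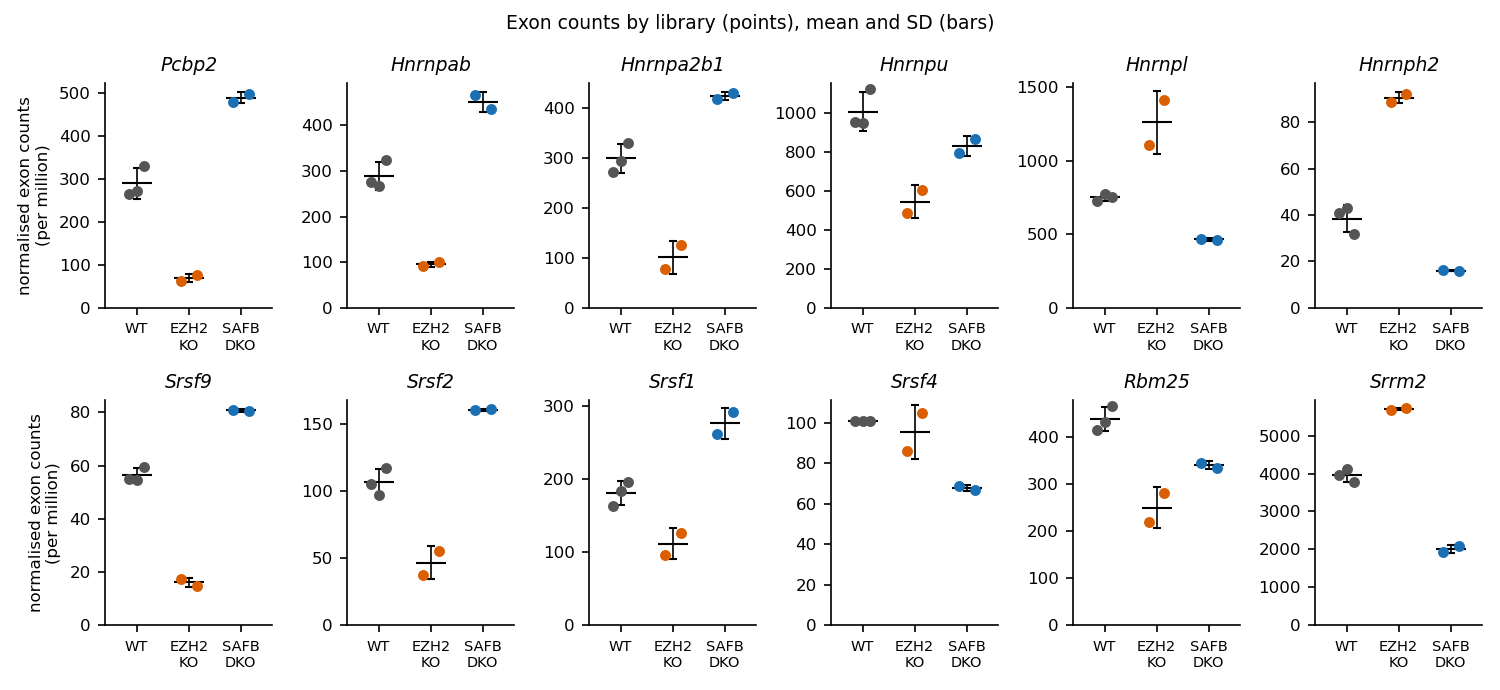
Each panel plots the normalised exon level (CPM) of a member in the 3 WT, 2 EZH2 KO and 2 SAFB DKO libraries, with the mean and SD of each group. Pcbp2, Hnrnpab, Srsf9 and Srsf2 are lowest in EZH2 KO and highest in SAFB DKO. Hnrnpl, Hnrnph2 and Srrm2 are highest in EZH2 KO and lowest in SAFB DKO, with the Hnrnpl level mostly from a single feature that is mostly intron.

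On introns few members were called in SAFB DKO, where many genes fell. Of all 9848 genes tested on introns, 45.1% fell and 0.843% rose in SAFB DKO, with a median of -0.92. Of 15 hnRNP genes none fell and none rose (edgeR), with a median of 0.29, and none had an unadjusted p under 0.05. By column totals, DESeq2 size factors or the DESeq2 test none fell and 5 rose, while 41.6%, 40.2% and 39.8% of all genes fell. Of 11 SR genes 1 fell and 3 rose, with a median of 0.14. In EZH2 KO 9.17% of all genes fell and 26.9% rose on introns (median 0.26), beside 3 and 1 of 15 hnRNP genes (median -0.57) and 1 and 2 of 11 SR genes (median -0.03). The hnRNP count in EZH2 KO turned on the scaling and on single libraries: 9 fell and none rose with column totals, 1 was called without the parental WT, and 9 were called without EZH2 KO clone 19. The SR count in SAFB DKO was 2 without the parental WT, without WT clone 44 or without either SAFB DKO clone, and 7 without EZH2 KO clone 12. In EZH2 KO it was 7 (6 fell) without clone 19. Summed intron levels were 166 to 191 CPM in WT, 151 and 173 in the EZH2 KO clones, and 203 and 194 in the SAFB DKO clones for hnRNP genes, and 224 to 244, 209 and 316, and 269 and 278 for SR genes, so in SAFB DKO both sums lay above all WT libraries.

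Most of the intron counts of Hnrnpu lay in a single feature near the 3′ end of the gene span, given further on. The intron features of this gene rose in EZH2 KO while its exons fell. They had 25.8, 28.8 and 31.5 CPM in WT, 43.6 and 45.1 in the EZH2 KO clones, and 24.9 and 21 in the SAFB DKO clones, a rise of 0.63 in EZH2 KO (SE 0.16, adjusted p = 0.00767) that was 0.39 with column totals (adjusted p = 0.0608). Introns of Hnrnpr did the reverse of its exons, with 8.64, 9.79 and 7.62 CPM in WT, 5.56 and 4.56 in the EZH2 KO clones, and 9.12 and 10.7 in the SAFB DKO clones, a fall of 0.78 in EZH2 KO (adjusted p = 0.0332). Introns of Hnrnpc and Syncrip fell by 0.64 and 0.62 in EZH2 KO (adjusted p = 0.0332 and 0.032), in the direction of their exons. These 3 falls were each lost when single WT or EZH2 KO libraries were left out, with adjusted p up to 0.121 for Hnrnpr, 0.111 for Hnrnpc and 0.103 for Syncrip.

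Among SR genes, introns of Srsf4 had 30.5, 32.0 and 26.9 CPM in WT, 45.3 and 54.9 in the EZH2 KO clones, and 20.4 and 26.3 in the SAFB DKO clones, a rise of 0.75 in EZH2 KO (SE 0.17, adjusted p = 0.0039) that was 0.15 with the exons of all transcripts taken out (adjusted p = 0.686). Introns of Tra2a rose in both knockouts, by 0.87 in EZH2 KO and 0.66 in SAFB DKO (adjusted p = 0.00519 and 0.0192): 35.7, 43.9 and 29.4 CPM in WT, 52.2 and 81.0 in the EZH2 KO clones, and 64.5 and 50.6 in the SAFB DKO clones. The first was 0.46 without EZH2 KO clone 19 (adjusted p = 0.0899), and the second 0.47 without SAFB DKO clone 13 (adjusted p = 0.188). The single intron feature of Srsf5 (chr12:80948268-80948677), all of it annotated in retained-intron transcripts, had 12.7, 14.7 and 11.7 CPM in WT, 14.6 and 19.8 in the EZH2 KO clones, and 25.7 and 20.4 in the SAFB DKO clones. It rose by 0.82 in SAFB DKO (SE 0.20, adjusted p = 0.00457), and by 0.64 without SAFB DKO clone 13 (adjusted p = 0.0687). Introns of Srsf11 rose by 0.84 (adjusted p = 0.0311), a value that was 0.54 without SAFB DKO clone 4 (adjusted p = 0.282) and lost its call without each WT library (adjusted p = 0.129, 0.0852 and 0.0727). Those of Rbm25 fell by 0.60 in EZH2 KO (adjusted p = 0.0432), with -0.31 without EZH2 KO clone 12 (adjusted p = 0.221) and no call without any 1 of the WT libraries. Those of Srrm2, at 3.25 to 4.09 CPM in WT, fell by 1.39 in SAFB DKO (adjusted p = 0.00904). Without SAFB DKO clone 4 the value was -1.27 (adjusted p = 0.0585).

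Setting introns against exons within each library removes what the whole gene shares. In EZH2 KO 7 of 15 hnRNP genes had a higher intron-to-exon ratio and 1 a lower one (median log2 change 0.40), beside 23.8% higher and 7.38% lower among all 8442 genes tested (median 0.35). In SAFB DKO no hnRNP ratio was called (median 0.00), and none had an unadjusted p under 0.05, where 38.1% of all genes had a lower ratio and 4.68% a higher one (median -0.77). Of 11 SR genes 3 had a higher and none a lower ratio in EZH2 KO (median 0.35), and likewise 3 and none in SAFB DKO (median 0.22). The hnRNP count in EZH2 KO fell to 3 without EZH2 KO clone 12, to 4 without the parental WT or WT clone 44 and to 5 without WT clone 20. It was 3 on features at least 90% in exons and 4 with the exons of all transcripts.

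The lowest adjusted p among the ratios was that of Hnrnpu, whose intron counts lay mostly in a single feature near the 3′ end of the gene. Its intron counts were 2.71%, 3.04% and 2.81% of its exon counts in WT, 8.98% and 7.44% in the EZH2 KO clones, and 3.12% and 2.42% in the SAFB DKO clones, a log2 rise of 1.52 in EZH2 KO (SE 0.16, adjusted p = 4.6e-05) that held under every alternative tried. In Hnrnpa2b1 the ratio was 2.20%, 2.29% and 2.39% in WT, 3.29% and 5.41% in the EZH2 KO clones, and 2.51% and 2.29% in the SAFB DKO clones (0.97 in EZH2 KO, adjusted p = 0.00935). In Hnrnpa1 it was 83.8%, 103% and 85.1%, then 291% and 149%, and 91.4% and 65.9% (1.18, adjusted p = 0.0107). Both EZH2 KO clones lay above all other libraries in these 3 genes. The genes of this paragraph were named for their calls, and how often all genes part in this way was not counted. Syncrip had 57.5%, 44.4% and 46.8% in WT, 97.1% and 88.2% in the EZH2 KO clones, and 58.8% and 41.4% in the SAFB DKO clones (0.91, adjusted p = 0.0342). Hnrnpk had 6.36%, 6.12% and 6.83%, then 29.6% and 9.30%, and 7.63% and 3.93% (1.35, adjusted p = 0.0296), where clone 12 stood far above clone 19. Hnrnph3 went from 5.15 to 9.09% in WT to 18.7% and 14% in EZH2 KO, with 7.01% and 5.30% in SAFB DKO (1.32, adjusted p = 0.0228). Both EZH2 KO clones were again above all other libraries in these genes. Ptbp1 went from 4.22 to 4.90% in WT to 12.8% and 7.62%, with 4.10% and 2.33% in SAFB DKO (1.12, adjusted p = 0.0232). Without EZH2 KO clone 12 the values were 0.53 for Hnrnpk, 0.72 for Ptbp1 and 0.72 for Hnrnpa1 (adjusted p = 0.382, 0.235 and 0.0814), and without clone 19 that of Hnrnpa2b1 was 0.53 (adjusted p = 0.279). The calls of Syncrip and Hnrnph3 were also lost when single libraries were left out. The lower ratio was that of Hnrnpr: 12.6%, 12.7% and 10.6% in WT, 6.45% and 4.52% in the EZH2 KO clones, and 13.2% and 16.3% in the SAFB DKO clones (-1.14, SE 0.26, adjusted p = 0.00558).

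The SR ratios called in EZH2 KO were those of Srsf4, Srsf5 and Srsf6, and in SAFB DKO those of Rbm25, Srsf11 and Tra2a. Srsf4 had 30.1%, 31.7% and 26.6% in WT, 52.6% and 52.3% in the EZH2 KO clones, and 29.7% and 39.3% in the SAFB DKO clones (0.84, adjusted p = 0.00566). With the exons of all transcripts, which take in its retained introns, that value was -0.02 (adjusted p = 0.958). Srsf5 had 16.5%, 18.5% and 13.3% in WT, 35.9% and 32.9% in the EZH2 KO clones, and 24.4% and 19.4% in the SAFB DKO clones (1.10, adjusted p = 0.00314). Srsf6 had 2.67%, 2.55% and 1.89%, then 6.23% and 3.62%, and 2.50% and 2.09% (1.02, adjusted p = 0.0302; 0.62 and 0.288 without EZH2 KO clone 12). In these 3 genes both EZH2 KO clones lay above all other libraries. In SAFB DKO, Rbm25 had 7.62%, 7.87% and 8.19% in WT, 7.50% and 10.4% in the EZH2 KO clones, and 11.9% and 14.9% in the SAFB DKO clones (0.75, SE 0.16, adjusted p = 0.00242). Srsf11 had 3.91%, 4.56% and 4.17%, then 4.68% and 7.53%, and 6.32% and 8.96% (0.84, adjusted p = 0.0083). Tra2a had 49.2%, 41.2% and 31.3%, then 67.9% and 39.6%, and 79.5% and 55.1% (0.73, adjusted p = 0.0358). Both SAFB DKO clones lay above all WT libraries in these 3 genes. The SR genes of both sets were named for their calls, and how often all genes part in these ways was not counted. Srsf11 had 0.59 without SAFB DKO clone 4 (adjusted p = 0.115) and Tra2a 0.46 without clone 13 (adjusted p = 0.29). Between the knockouts the ratios of Srsf11 and Tra2a did not pass (SAFB DKO against EZH2 KO 0.29 and 0.37, adjusted p = 0.432 and 0.286). None of the SAFB DKO ratio calls remained on features at least 90% in exons, where Rbm25 had 0.27, Srsf11 0.68 and Tra2a -0.32.

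**Figure D4:**
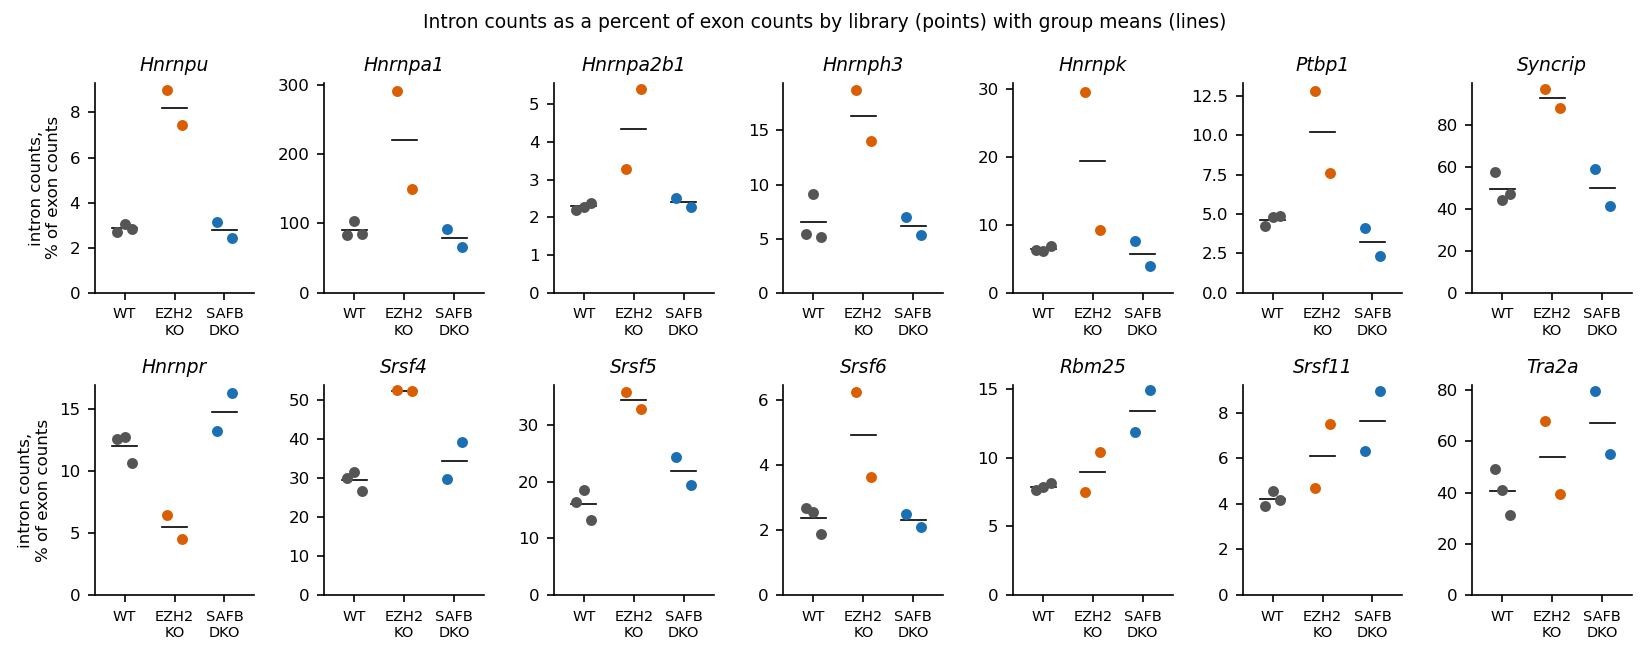
Each panel plots the intron counts of a member as a percent of its exon counts in each library, with the group mean as a line. Hnrnpu stands at 2.71 to 3.04% in WT and at 7.44 and 8.98% in EZH2 KO, and Hnrnpr at 10.6 to 12.7% in WT and at 4.52 and 6.45% in EZH2 KO.

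Taking the features one by one, 15 of 200 tested hnRNP features rose and 3 fell in SAFB DKO (median 0.32), beside 2.26% risen and 17.4% fallen among all 192964 features tested (median -0.17). In EZH2 KO 66 fell and 3 rose (median -0.83), beside 8.07% and 7.50% (median -0.21). Of 131 SR features 9 rose and 9 fell in SAFB DKO (median 0.20), and 6 rose and 30 fell in EZH2 KO (median -0.56). In SAFB DKO the SR split became 26 risen and 5 fallen by column totals, and 26 and 4 by the size factors of DESeq2. These feature counts hung on single libraries. In SAFB DKO, hnRNP features called numbered 5 without the parental WT, 7 without WT clone 20, 9 and 7 without SAFB DKO clones 13 and 4, and 53 without either EZH2 KO clone. For SR features the same steps gave 4, 6, 9 and 8, and 39, and without WT clone 44 there were 10. In EZH2 KO, 108 hnRNP features were called without clone 19. For SR features 61 were called without that clone, and 21, 23 and 19 without the parental WT, WT clone 20 and WT clone 44. None of the 346 features was in the authors' short list of 10043 peaks, and 1, an intron feature of Srrm2, was in their filtered list of 33671.

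Features that moved against the rest of their gene were tested with the other features as reference, an analysis added after the data were seen. In SAFB DKO 2 hnRNP features were lower and 4 higher than the rest of their gene, and 2 and 4 SR features, beside 3.62% lower and 2.87% higher among all 151038 features tested. In EZH2 KO 5 and 2 hnRNP features and 3 and 0 SR features were called, beside 1.50% and 0.396%. Each call of a member in EZH2 KO had an adjusted p of 0.0475 or 0.0483, and no member was called when any single library other than EZH2 KO clone 19 was left out. The calls in SAFB DKO rested on single libraries too. The 6 called hnRNP features became 1 without the parental WT, WT clone 20 or either SAFB DKO clone, 2 without WT clone 44 and 7 without either EZH2 KO clone. The 6 called SR features became 0 without the parental WT, WT clone 20 or either SAFB DKO clone, 1 without WT clone 44 and 12 without either EZH2 KO clone. Features of 1 gene also mirror each other in this test, since each is part of the reference of the others.

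Hnrnpl had 5 features, and 1 of them moved against the other 4. Its second feature (chr7:28815146-28817711, + strand, 2566 bases, of which 123 code) takes in the end of a 97-base coding exon, a 73-base coding exon, the intron behind it, and a 70-base exon annotated only in decay and retained-intron transcripts. It had 529, 560 and 543 CPM in WT, 1039 and 1319 in the EZH2 KO clones, and 168 and 160 in the SAFB DKO clones. This feature fell by 1.73 in SAFB DKO (SE 0.13, adjusted p = 6.0e-08), and in EZH2 KO it rose by 1.12 (SE 0.12, adjusted p = 3.0e-05). The other features had the order of the other hnRNP genes. The fifth (chr7:28821178-28822248) had 97.3, 110 and 108 CPM in WT, 26.6 and 42.8 in the EZH2 KO clones, and 153 and 159 in the SAFB DKO clones, a fall of 1.60 and a rise of 0.57 (adjusted p = 8.1e-05 and 0.0321). The first (chr7:28813860-28814241) had 44.1, 52.0 and 49.8, then 22.6 and 22.8, and 74.9 and 74.5 CPM, a fall of 1.10 and a rise of 0.62 (adjusted p = 7.6e-04 and 0.013). The rises of features 1 and 5 in SAFB DKO were each lost when single libraries were left out. Features 3 and 4 fell by 1.20 and 0.93 in EZH2 KO and had changes of 0.46 and 0.47 in SAFB DKO (adjusted p = 0.102 and 0.154). Against the rest of Hnrnpl, the second feature was lower by a log2 difference of -2.29 in SAFB DKO (adjusted p = 0.00216) and higher by 2.45 in EZH2 KO (adjusted p = 0.0475). When 1 library was left out, these differences were -2.32 to -2.26, each of them called, and 2.40 to 2.49. HNRNPL is known to act on the splicing of its own transcript in this region, through a decay exon. The retained-intron and decay-exon stretches printed above lie in this feature, the first with 2 GAAGA in 300 bases and the second with none in 56.

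In Srrm2 the long exon moved in both knockouts, and the 3 coding features described before it did not pass. Feature 13 (chr17:23815183-23820606, + strand) is 5424 bases of coding exon, with 19 GAAGA, and codes for arginine- and serine-rich sequence. It had 3470, 3615 and 3315 CPM in WT, 5165 and 5228 in the EZH2 KO clones, and 1540 and 1686 in the SAFB DKO clones, a fall of 1.10 in SAFB DKO (SE 0.09, adjusted p = 1.1e-07) and a rise of 0.58 in EZH2 KO (SE 0.08, adjusted p = 2.5e-04). Feature 14, the next coding one (chr17:23821034-23821425), went with it, by -0.73 and 0.65 (adjusted p = 9.2e-04 and 0.00397). Features 8, 9 and 10, which hold earlier coding exons, had changes of 0.00, -0.04 and -0.09 in SAFB DKO and -0.27, -0.47 and -0.38 in EZH2 KO, none of which passed. The last feature of Srrm2 had 19.7, 24.3 and 31.3 CPM in WT, 15.3 and 15.9 in the EZH2 KO clones, and 35.6 and 39.4 in the SAFB DKO clones, so that its order was that of the other SR genes (-0.68 and 0.58, adjusted p = 0.0518 and 0.0627). Against the rest of Srrm2, feature 13 was lower in SAFB DKO (-0.82, adjusted p = 0.0398), and features 8, 9, 10 and 15 were higher (0.98, 0.97, 0.91 and 1.59, adjusted p = 0.0306, 0.0241, 0.0308 and 0.00885). Features 8, 9, 10 and 13 lost that call without each WT or SAFB DKO library in turn, and feature 15 without the parental WT, WT clone 20 or SAFB DKO clone 13 or 4 (adjusted p = 0.0607, 0.0654, 0.0761 and 0.0779). The filtered-list intron feature of Srrm2 (chr17:23801932-23802025) had 0.873 to 1.25 CPM in WT and 0.182 and 0.0538 in SAFB DKO (-3.08, adjusted p = 0.0476), a call lost under most alternatives.

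Tra2a was split in another way, between the front and the back of the gene in EZH2 KO. Its sixth feature (chr6:49252343-49253119, - strand, 777 bases) holds a coding exon and a 306-base exon annotated in a decay transcript only, with 8 GAAGA in the feature. It had 34.3, 61.3 and 48.1 CPM in WT, 60.1 and 179 in the EZH2 KO clones, and 19.7 and 31.3 in the SAFB DKO clones. The rise of 1.32 in EZH2 KO (SE 0.33, adjusted p = 0.0133) came from clone 19: without it the value was 0.26 (adjusted p = 0.419). In SAFB DKO both libraries lay below WT, and the change missed the threshold (-0.91, adjusted p = 0.0774). The features after it, of coding exons that follow, fell in EZH2 KO: feature 7 had 3.54 to 3.86 CPM in WT and 0 and 0.472 in EZH2 KO (-3.97, adjusted p = 0.00112), and feature 10, at the end of the gene, had 16.5, 22.3 and 23.1 CPM in WT, 5.11 and 12.4 in the EZH2 KO clones, and 28.3 and 31.6 in the SAFB DKO clones (-1.24, adjusted p = 0.0121). Intron features 4 and 5, before it, both rose by 1.15 in EZH2 KO (adjusted p = 0.0191 and 0.00196). Feature 4 had 0.41 without EZH2 KO clone 19 (adjusted p = 0.327) and lost its call without each WT library (adjusted p = 0.0623, 0.0757 and 0.0877) and with the replicate block (adjusted p = 0.117), while feature 5 kept it. The printed Tra2a stretch holds 4 GAAGA in 141 bases and is 69.5% purine, the highest purine share among the stretches printed.

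**Figure D5:**
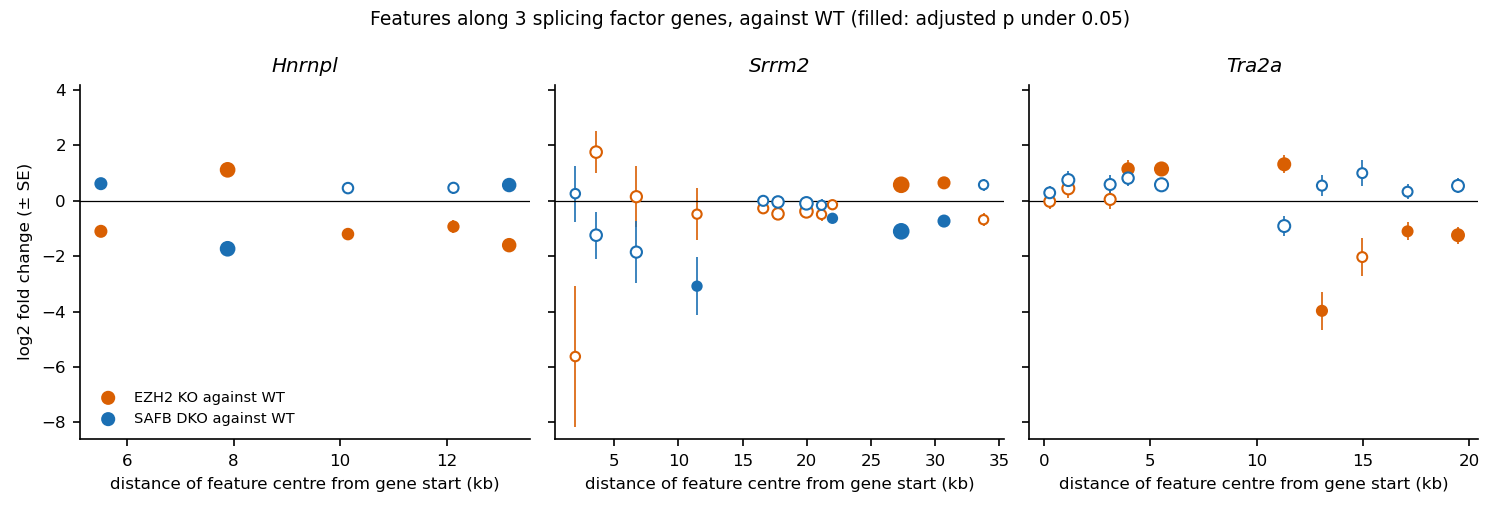
Points give the log2 fold change against WT of each feature of Hnrnpl, Srrm2 and Tra2a at its distance from the start of the gene (kb), with bars of 1 SE, filled where the adjusted p was under 0.05 and larger for longer features. In Hnrnpl 1 large point lies at -1.73 in SAFB DKO and 1.12 in EZH2 KO while the other 4 lie on the opposite sides of 0.

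Large changes were also found in single features of Srsf10, Hnrnpu, Srsf4 and Rbm25. Srsf10 feature 7 (chr4:135866509-135867642), the last of the gene, had 27.9, 28.9 and 28.6 CPM in WT, 35.0 and 52.5 in the EZH2 KO clones, and 8.67 and 10.8 in the SAFB DKO clones. It fell by 1.55 in SAFB DKO (SE 0.22, adjusted p = 6.7e-05) while the other 6 features of Srsf10 were not called in that knockout, and it was lower than the rest of the gene (-1.38, adjusted p = 0.0361). The last value was lost without each WT or SAFB DKO library in turn (-1.53 to -1.22, adjusted p = 0.117 to 0.209). An intron feature of Hnrnpu (chr1:178321137-178322214) lies near the 3′ end of the gene span and held most of the intron counts of that gene. It had 19.7, 21.3 and 21.6 CPM in WT, 34.9 and 34.1 in the EZH2 KO clones, and 12.7 and 11.9 in the SAFB DKO clones. These were a rise of 0.73 and a fall of 0.76 (adjusted p = 0.0179 and 0.0103), both lost with column totals and with the replicate block. The intron feature 7 of Srsf4 (chr4:131884885-131887035), of which 1097 bases are annotated as retained, had 18.1, 20.0 and 15.5 CPM in WT, 35.2 and 38.1 in the EZH2 KO clones, and 10.1 and 13.5 in the SAFB DKO clones. It rose by 1.04 in EZH2 KO (adjusted p = 0.00356), and both SAFB DKO libraries lay below WT (-0.60, adjusted p = 0.0614). Rbm25 feature 15 (chr12:83668036-83668550), with 8 GAAGA, fell in both knockouts: 94.6, 89.3 and 94.9 CPM in WT, 17.4 and 37.9 in the EZH2 KO clones, and 65.4 and 46.1 in the SAFB DKO clones (-1.75 and -0.74, adjusted p = 3.9e-04 and 0.0431). The call in SAFB DKO was lost under every scaling tried and without any 1 of the WT libraries.

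In SAFB DKO the hnRNP features that rose most were Pcbp2 feature 4 (1.10), Pcbp2 feature 10 (0.93), Hnrnpab feature 2 (0.90), Pcbp2 feature 3 (0.87) and Hnrnpc feature 9 (0.84), each with a coding exon. Except for Pcbp2 features 3 and 4, these calls were lost when single WT or SAFB DKO libraries were left out. Pcbp2 feature 3 (chr15:102474078-102474733), which holds the printed Pcbp2 exon, had 75.3, 80.1 and 98.3 CPM in WT, 12.9 and 16.7 in the EZH2 KO clones, and 150 and 159 in the SAFB DKO clones, a fall of 2.51 in EZH2 KO (SE 0.20, adjusted p = 4.9e-06). The SR features that rose most in SAFB DKO were Tra2b feature 6 (0.91), Srsf5 features 4 and 3 (0.82 and 0.72), Srsf7 feature 2 (0.72) and Srsf1 feature 1 (0.70), and each of these calls was lost without single libraries and with the replicate block. In EZH2 KO the lowest called hnRNP features had few counts: Pcbp2 feature 9 (-4.47) and Hnrnpm feature 13 (-3.87) had 0 and 0.157 CPM in the knockout, and Hnrnpll features 15 and 16 and Hnrnpr feature 1 had no count there, at least 5.25-, 5.08- and 5.20-fold lower by a floor of 3 counts over the group. Such floors cover counting error only. The lowest SR features in EZH2 KO beside Tra2a feature 7 were Rbm25 feature 11 (-2.28), Srsf6 feature 6 (-2.17), Srsf11 feature 10 (-2.07, lost without each WT library) and Srsf9 feature 3 (-1.94).

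Compared directly, SAFB DKO lay above EZH2 KO in most members. This comparison shares its libraries with the 2 above. On exons 20 of 24 hnRNP genes were higher and 3 lower in SAFB DKO than in EZH2 KO (median 1.22), and 10 and 3 of 15 SR genes (median 0.96), beside 37.2% and 28.8% of all genes (median 0.27). The widest gaps were those of Pcbp2 (2.81, adjusted p = 1.4e-08), Srsf9 (2.33, adjusted p = 7.7e-08), Hnrnpab (2.24, adjusted p = 3.5e-08) and Hnrnpa2b1 (2.07, adjusted p = 9.1e-07). On the other side they were those of Hnrnph2 (-2.50, adjusted p = 9.3e-08), Srrm2 (-1.50, adjusted p = 1.1e-07) and Hnrnpl (-1.44, adjusted p = 1.1e-06). The Hnrnpl sum lay mostly in a single feature that is mostly intron. On introns 8 hnRNP genes were higher and 1 lower (median 0.69), and 3 and 2 SR genes (median 0.17), beside 8.28% and 50.3% of all genes (median -1.22). The SR intron count was 8 (6 higher) without EZH2 KO clone 19. The ratio was lower in 8 and higher in 2 hnRNP genes, and lower in 3 and higher in 1 SR gene, beside 47.3% and 10.1%. It was called in 6 hnRNP genes without EZH2 KO clone 12, in 6 without SAFB DKO clone 4, and in 2 SR genes without SAFB DKO clone 4. Of the features, 99 hnRNP ones were higher and 8 lower, and 51 and 8 SR ones, beside 16.6% and 23.3%.

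A smaller share of member windows than of all windows held the purine-rich motif GAAGA, while counted per kb SR windows held slightly more of it. On the sense strand, GAAGA occurred in 39.2% of 97 windows of 300 bases from hnRNP features and in 39.6% of 106 from SR features, beside 46.9% of 60735 windows from all features of 1 gene. AGAAG, which overlaps GAAGA, occurred in 38.1% and 46.2% beside 49.3%, and GAAGAA, which contains GAAGA, in 14.4% and 19.8% beside 19.2%. Counted per kb, GAAGA occurred 1.92 times in hnRNP windows and 2.67 times in SR windows, beside 2.5 in all. AGAAG occurred 1.68 and 3.27 times per kb beside 2.63, and GAAGAA 0.481 and 1.13 times beside 0.832. TTTTT, searched as a contrast, occurred in 45.4% and 49.1% of member windows and in 29.0% of all. Only windows covered by annotated transcripts could be read, and these shares are descriptions of sequence, not of binding.

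Other splicing genes were read from lists as a setting for the members, beside the shares of all genes: on exons 27.3% fell and 18.1% rose in EZH2 KO, and 21.7% fell and 20.0% rose in SAFB DKO. Of 28 core spliceosome genes 23 fell and none rose in EZH2 KO (median -1.18), and 14 rose and none fell in SAFB DKO (median 0.49). Prpf8, the U5 protein at the catalytic core, had 436, 426 and 557 CPM in WT, 162 and 173 in the EZH2 KO clones, and 883 and 746 in the SAFB DKO clones. Of 8 genes for kinases that act on SR proteins and for a phosphatase regulatory subunit (Ppp1r8), 3 fell in EZH2 KO (median -0.30). In SAFB DKO 1 of them fell and 1 rose (median 0.21), the fall being that of Prpf4b (-0.85). Of 10 genes of nonsense-mediated decay 3 fell and 1 rose in EZH2 KO, and 3 fell and 2 rose in SAFB DKO (medians -0.22 and 0.10). Among other splicing regulators 10 of 21 fell and 1 rose in EZH2 KO, and 7 rose and 2 fell in SAFB DKO, 1 of the falls being that of Son, a speckle scaffold like Srrm2 (-0.87). On introns 7 of 18 other regulators fell and none rose in SAFB DKO (median -0.52), near the 45.1% of all genes that fell there. Of 17 core spliceosome genes 2 fell and none rose (median 0.11).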

How the data were processed

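Reads of 7 EZH2-antibody RIP libraries were counted by the authors on peak intervals; the deposited counts are whole numbers per feature, made with featureCounts 2.0.3 on the reverse strand per the file headers, with build mm10 per the submitters' processing notes. The aligner and peak caller are not given in the sources used here. Of the value columns, 3 belong to no sample here and were not used. Features were placed in genes with GENCODE M21, and exon features are those that touch an exon of the basic annotation. Counts were summed per gene and region and fitted with edgeR 4.0.16 (R 4.3.3), as 1 quasi-likelihood model over the 7 libraries with Benjamini-Hochberg adjustment over all rows. Library sizes were column totals times TMM factors (0.761 to 1.175) from the tested features outside the authors' filtered list. The intron-to-exon ratio and each feature against the rest of its gene were fitted with the library as block. The steps were tested on simulated data. Alternatives were DESeq2 1.42.0, other scaling, other filters and exon definitions, and leaving out each library. Members and lists were chosen with earlier results of these data known. Values per library are given for genes called in both knockouts, those whose exons and introns or ratio differ, and the 3 with the highest counts per family; features are named that have the highest count or are among the 5 lowest or highest called, and others were named after their values were seen. Both SAFB DKO labels carry the same replicate number, so these libraries were numbered by accession order.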

Additional observations from a re-analysis of the deposited data

How the results depend on the processing

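Most single values of members kept their side of the threshold under the alternatives tried. Values called in neither of the settings compared were counted as kept, whatever their sign. Of 3830, 3238 were kept, 378 lost the call, 208 gained it and 6 changed sign with a call in either setting. On exon features at least 90% in exons the last were Rbm25 on exons in SAFB DKO (0.18), Tra2a on exons in EZH2 KO (-2.03), Hnrnpc on exons in EZH2 KO (0.47), Hnrnpul2 on exons in SAFB DKO (-0.01) and the Tra2a ratio in SAFB DKO (-0.32), and with the exons of all transcripts, a setting added after the data were seen, the Srsf4 ratio in EZH2 KO (-0.02). The causes were not tested. The median log2 fold change over the exon and intron sums of all genes moved by -0.25 in EZH2 KO and 0.22 in SAFB DKO with column totals. In SAFB DKO against WT, hnRNP genes called on exons numbered 20 with column totals, 20 with DESeq2 size factors, 20 with the DESeq2 test and 6 on features at least 90% in exons, and on introns 2 with TMM over all features and 5 under each of the other 3 scalings. Called hnRNP features numbered 33 by TMM over all features, then 57, 56 and 52 by column totals, DESeq2 size factors and the DESeq2 test, and 30 among features with a mean of at least 50 counts, and called SR features 31, 30 and 29 under the last 3 scalings. SR genes called on introns numbered 1 with the exons of all transcripts, and SR ratios 0 on features at least 90% in exons. In EZH2 KO against WT, hnRNP genes called on exons numbered 13 on features at least 90% in exons, and on introns 7 by TMM over all features and 9 by column totals. Changed hnRNP ratios numbered 3 on features at least 90% in exons and 4 with the exons of all transcripts. SR counts were 5 on introns and 66 features with column totals, and 1 ratio with the exons of all transcripts. In SAFB DKO against EZH2 KO, SR intron calls numbered 8 with column totals and 3 with the exons of all transcripts, hnRNP ratios 4 on features at least 90% in exons and 5 with the exons of all transcripts, and SR ratios 2 with the latter.

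With 1 library left out, hnRNP calls ran from 5 to 17 on exons, 0 to 2 on introns, 0 to 1 for ratios and 5 to 53 for features in SAFB DKO, and from 1 to 9 on introns, 3 to 8 for ratios and 46 to 108 for features in EZH2 KO. SR calls ran from 4 to 12 on exons, 2 to 7 on introns and 4 to 39 for features in SAFB DKO, and from 2 to 7 on introns and 19 to 61 for features in EZH2 KO. Features called against the rest of their gene ran from 1 to 7 (hnRNP) and 0 to 12 (SR) in SAFB DKO, and from 0 to 16 and 0 to 9 in EZH2 KO. Between the knockouts the ranges were 6 to 9 for hnRNP ratios, 4 to 8 for SR introns and 2 to 5 for SR ratios. Replicate numbers did not pair the libraries: deviations from group means correlated at 0.08 and 0.01 for WT and EZH2 KO libraries of the same number. With the replicate block, hnRNP intron calls in EZH2 KO numbered 1 and SR features called in SAFB DKO 11. With 2 clones per knockout and fewer reads in EZH2 KO, features with few counts there have wide errors.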
